A study of Homo sapiens with 4 samples.

Results

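Start sites of long non-coding RNA (lncRNA) genes bound by LAP-tagged Smad2 or LAP-tagged Smad3 after TGFβ-1 were examined in MDA-MB-231 cells, a line from a human breast cancer. A peak was counted as lying at a lncRNA start site if its centre was within 1 kb of the 5′ end of a gene annotated as lncRNA in GENCODE release 44 and more than 3 kb from every start of a protein-coding transcript. By this rule, after TGFβ-1 treatment 844 of 26828 LAP-Smad2 peaks lay at lncRNA start sites, and so did 1404 of 62551 LAP-Smad3 peaks. Together these were 2248 of the 89379 peaks in the lists from treated cells. The rule used only peak positions and the annotation, and no peak score.

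All cells were stable transfectants that carried a bacterial artificial chromosome (BAC) with either SMAD2 or SMAD3, its own control elements and a C-terminal LAP tag containing GFP, and that had been selected with Geneticin and sorted for GFP. The untagged Smads of the cells were still present. Each line was left untreated or given 10 ng/mL TGFβ-1 for 2 h, and chromatin was precipitated with an anti-GFP antibody. The 4 conditions had 1 library each, so that no comparison below has a replicate check and no p-value between conditions is given. Intervals in parentheses are 95% Wilson intervals, which cover counting error only.

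The 2 untreated libraries carry a conflict, since their sample labels name one Smad and their deposited lists the other. Each is called here by its label, the library labelled LAP-Smad2 untreated (11266 peaks) or LAP-Smad3 untreated (3511 peaks), and no direction is drawn between them. The study's methods set a minimum number of reads per library, but the lists hold no read totals, so the depth reached in each is unknown and a longer list may be a deeper library. A site without a listed peak is therefore one that did not pass the authors' threshold in that library, and not one shown to be unbound. The strength of a peak is given as its fold enrichment over the local background and as −log10 of its q-value, both from the authors' peak caller, and these values are not on a common scale between lists. The lists hold no expression values, so neither the cell line nor the transcription of these lncRNAs could be checked.

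Smad2 and Smad3 are the receptor-activated Smads of the TGFβ pathway: the activated receptor phosphorylates them, they join Smad4 and enter the nucleus, where they bind chromatin together with other transcription factors. Smad3 and Smad4 touch DNA through the MH1 domain, which reads short CAGAC-type elements and GC-rich elements such as GGCGC and GGCCG, while the main form of Smad2 carries an insert in this domain that weakens direct DNA contact. lncRNA genes include nuclear scaffold RNAs such as MALAT1 and NEAT1, hosts of miRNAs and of small nucleolar RNAs, and many transcripts of unknown function. Several lncRNAs and miRNA hosts are known for roles in TGFβ-driven epithelial-mesenchymal transition (EMT).

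The DNA at these sites is shown first, since LAP-Smad2 and LAP-Smad3 sites differed in base composition. Each sequence is the 200 bp on the centre of a peak, read from the plus strand of hg38, with CpG dinucleotides in capitals. The examples were chosen after their values had been seen, to show lncRNAs of known function beside strong peaks, and are not a random draw. The first set comes from the LAP-Smad2 list after TGFβ-1.

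MALAT1, chr11:65497625-65497824: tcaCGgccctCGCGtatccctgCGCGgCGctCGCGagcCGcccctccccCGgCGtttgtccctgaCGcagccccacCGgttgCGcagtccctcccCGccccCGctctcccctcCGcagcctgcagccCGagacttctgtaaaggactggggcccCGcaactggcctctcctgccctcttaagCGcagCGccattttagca
MIR100HG, chr11:122556740-122556939: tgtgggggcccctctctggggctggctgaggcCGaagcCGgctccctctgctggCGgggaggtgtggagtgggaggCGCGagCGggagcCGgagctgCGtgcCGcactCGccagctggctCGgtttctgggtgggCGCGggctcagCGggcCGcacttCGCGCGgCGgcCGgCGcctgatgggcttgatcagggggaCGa
MIR155HG, chr21:25562168-25562367: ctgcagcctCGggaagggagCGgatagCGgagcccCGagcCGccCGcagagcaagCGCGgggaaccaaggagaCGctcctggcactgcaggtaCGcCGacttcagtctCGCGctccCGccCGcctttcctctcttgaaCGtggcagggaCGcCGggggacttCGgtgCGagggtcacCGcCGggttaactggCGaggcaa
SNHG17, chr20:38435091-38435290: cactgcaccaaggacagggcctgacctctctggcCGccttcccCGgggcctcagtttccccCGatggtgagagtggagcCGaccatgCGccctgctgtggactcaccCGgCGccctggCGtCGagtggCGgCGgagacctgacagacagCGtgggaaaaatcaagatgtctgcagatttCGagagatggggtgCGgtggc
ENSG00000289474, chr2:148881698-148881897: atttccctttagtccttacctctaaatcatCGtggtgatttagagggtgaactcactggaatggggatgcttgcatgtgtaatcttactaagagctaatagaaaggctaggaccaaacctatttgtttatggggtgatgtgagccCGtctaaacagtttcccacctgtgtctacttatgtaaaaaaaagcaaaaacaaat

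The MALAT1, MIR100HG and MIR155HG windows held 21, 22 and 23 CpGs, and the SNHG17 window held 14. ENSG00000289474 held 2 CpGs. It was the LAP-Smad2 site of highest significance among those without another copy by the measure described with repeated DNA. The second set comes from the LAP-Smad3 list after TGFβ-1.

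NEAT1, chr11:65422790-65422989: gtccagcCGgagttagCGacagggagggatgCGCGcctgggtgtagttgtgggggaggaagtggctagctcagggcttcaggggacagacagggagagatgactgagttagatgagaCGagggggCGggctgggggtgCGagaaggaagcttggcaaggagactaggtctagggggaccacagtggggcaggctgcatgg
MIR200CHG, chr12:6962687-6962886: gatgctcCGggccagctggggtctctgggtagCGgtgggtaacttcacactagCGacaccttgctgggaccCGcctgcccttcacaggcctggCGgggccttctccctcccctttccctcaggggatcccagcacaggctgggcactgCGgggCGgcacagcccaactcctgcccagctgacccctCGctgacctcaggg
ENSG00000225140, chr10:628602-628801: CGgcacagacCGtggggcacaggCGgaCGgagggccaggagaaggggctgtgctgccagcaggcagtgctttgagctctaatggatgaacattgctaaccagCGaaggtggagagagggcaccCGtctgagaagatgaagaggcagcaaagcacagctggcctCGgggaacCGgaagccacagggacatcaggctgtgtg
ZSCAN16-AS1, chr6:28137018-28137217: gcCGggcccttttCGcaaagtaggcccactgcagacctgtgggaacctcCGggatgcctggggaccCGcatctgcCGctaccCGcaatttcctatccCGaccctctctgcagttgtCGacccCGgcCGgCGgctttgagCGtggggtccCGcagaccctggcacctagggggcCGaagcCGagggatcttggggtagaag

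The NEAT1 window held 7 CpGs, the MIR200CHG and ENSG00000225140 windows held 8 each and the ZSCAN16-AS1 window held 15. Over all sites, the median window held 15 CpGs at LAP-Smad2 sites and 7 at LAP-Smad3 sites, against 3 at all lncRNA 5′ ends that could have met the rule.

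LAP-Smad2 and LAP-Smad3 peaks were found at the start sites of 1861 lncRNA genes after TGFβ-1. Of the 18866 lncRNA genes on chromosomes 1 to 22, X and Y, 14256 had a 5′ end more than 3 kb from every protein-coding start and are called eligible. A LAP-Smad2 peak lay within 1 kb of 849 eligible genes, or 5.96% (5.58% to 6.36%), and a LAP-Smad3 peak within 1 kb of 1269, or 8.9% (8.45% to 9.38%). When the LAP-Smad3 list was cut to the length of the LAP-Smad2 list by significance, its share was 4.31%, so that the order of LAP-Smad2 and LAP-Smad3 here depended on list length. The libraries labelled LAP-Smad2 and LAP-Smad3 untreated had peaks at 207 eligible genes (1.45%) and 110 eligible genes (0.772%). As shares of each list, lncRNA start sites took 3.15% for LAP-Smad2 and 2.24% for LAP-Smad3 after TGFβ-1, and 1.86% and 2.68% for the libraries labelled LAP-Smad2 and LAP-Smad3 untreated.

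With genes included whose 5′ end was within 3 kb of a protein-coding start while the peak was not, 859 lncRNA genes had a LAP-Smad2 peak and 1277 had a LAP-Smad3 peak. Of these, 275 had both, which is 32.0% of the LAP-Smad2 genes and 21.5% of the LAP-Smad3 genes. In 201 of the 275 genes the peaks overlapped, and in the other 74 LAP-Smad2 and LAP-Smad3 had separate peaks at the same start site. The nearest centres were 151 bp apart in the median gene. Most genes had a single peak, and 66 genes had 2 or more LAP-Smad2 peaks while 171 had 2 or more LAP-Smad3 peaks.

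Both lists had their highest share of peaks just downstream of the annotated 5′ end, though LAP-Smad3 peaks were spread more evenly over the bins. Distances were taken to the nearest 5′ end, and 89 LAP-Smad2 and 79 LAP-Smad3 sites had 2 or more lncRNA 5′ ends within 1 kb. Of the LAP-Smad2 peaks, 255 (30.2%, 27.2% to 33.4%) had their centre within 200 bp of the 5′ end, against 371 (26.4%, 24.2% to 28.8%) of the LAP-Smad3 peaks. The median distance to the 5′ end was 329.5 bp for LAP-Smad2 and 417.5 bp for LAP-Smad3. The first 200 bp of the gene held 18.4% of the LAP-Smad2 sites and 14.8% of the LAP-Smad3 sites, while the outermost 200 bp upstream held 4.03% and 7.48%. Centres upstream of the gene made up 38.3% (35.1% to 41.6%) of LAP-Smad2 and 42.7% (40.2% to 45.3%) of LAP-Smad3 sites. A further 31.6% and 27.2% lay in an exon of the lncRNA, 28.8% and 28.6% in an intron, and 11 and 20 peaks past the 3′ end of a short gene.

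**Figure D1:**
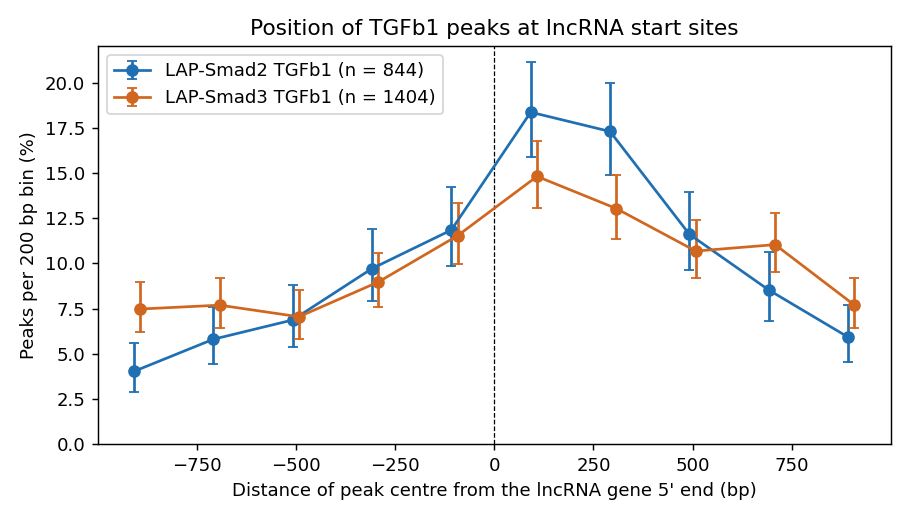
Share of peaks in bins of 200 bp by distance of the peak centre from the lncRNA 5′ end, in bp, with negative values upstream, for 844 LAP-Smad2 and 1404 LAP-Smad3 sites after TGFβ-1. Points are percentages and bars are 95% Wilson intervals. Both lists are highest in the first 200 bp of the gene, at 18.4% and 14.8%.

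The limits of the rule did not fall at a gap in the data. Between 900 and 1000 bp from a lncRNA 5′ end lay 41 LAP-Smad2 and 90 LAP-Smad3 peaks, and between 1000 and 1100 bp lay 34 and 81. A further 1113 LAP-Smad2 and 739 LAP-Smad3 peaks were within 1 kb of a lncRNA 5′ end but too close to a protein-coding start to be counted. The nearest protein-coding start was 42195 bp away from the median LAP-Smad2 site and 41038.5 bp away from the median LAP-Smad3 site.

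LAP-Smad2 sites were richer in G and C than LAP-Smad3 sites, and both were richer than eligible lncRNA 5′ ends in general. Windows of sites were centred on the peak and those of eligible genes on the annotated 5′ end, here and for the motifs below. Mean GC content was 68.0% at LAP-Smad2 sites (SD across peaks 6.38) and 60.5% at LAP-Smad3 sites (SD 5.27), a difference of 7.52 percentage points, against 48.6% (SD 10.6) over the 14256 eligible 5′ ends. Windows with at least 50% GC and an observed-to-expected CpG ratio of at least 0.6 are called CpG-rich, which is the sequence pattern of CpG islands. CpG-rich windows made up 62.7% (59.4% to 65.9%) of LAP-Smad2 sites, 32.1% (29.7% to 34.5%) of LAP-Smad3 sites and 11.5% (11% to 12%) of eligible 5′ ends. A GC content of 70% or more was found in 38.4% of LAP-Smad2 and 4.63% of LAP-Smad3 sites.

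The same order held in the whole lists, where mean GC content was 63.8% for LAP-Smad2 and 58.5% for LAP-Smad3 peaks. Peaks within 1 kb of protein-coding starts had 70.8% and 61.6%. In mean GC content, lncRNA start sites thus lay between the whole list and the protein-coding promoters in both lists. CpG-rich windows made up 48.8% of the whole LAP-Smad2 list and 32.2% of the whole LAP-Smad3 list. The LAP-Smad3 share was thus near the 32.1% at its lncRNA start sites. Among LAP-Smad2 sites, CpG-rich windows were more frequent within 200 bp of the 5′ end (71.0%, 65.1% to 76.2%) than farther away (59.1%, 55.1% to 63.0%). Among LAP-Smad3 sites, these shares were 31.5% (27% to 36.4%) and 32.2% (29.5% to 35.1%), so that a difference by distance was not detectable.

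**Figure D2:**
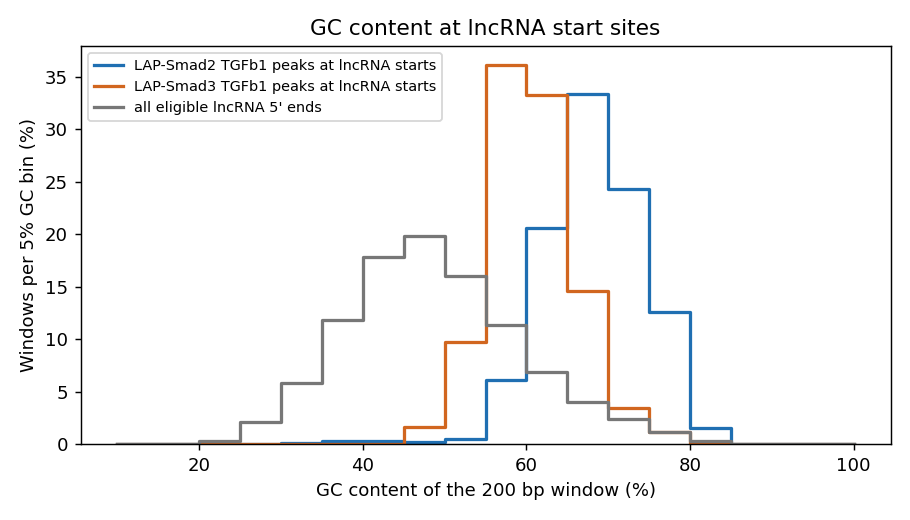
Percentage of 200 bp windows in each bin of 5% GC content at LAP-Smad2 sites, LAP-Smad3 sites and all 14256 eligible lncRNA 5′ ends. The curves are ordered from eligible 5′ ends (mean 48.6%) through LAP-Smad3 (60.5%) to LAP-Smad2 sites (68.0%).

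Read from the side of the genes, the lists rose and fell differently with GC content. The share of eligible genes with a LAP-Smad2 peak was 1.39% where the window on the 5′ end had under 40% GC, 1.64% between 40 and 50%, 5.64% between 50 and 60%, 19.4% (17.5% to 21.4%) between 60 and 70%, and 36.0% (32.2% to 40.1%) at 70% or more. For LAP-Smad3, the shares in the same bands were 2.85%, 3.76%, 12.7%, 25.1% (23.1% to 27.4%) and 17.7% (14.7% to 21.0%). LAP-Smad2 was thus highest in the most GC-rich band, while LAP-Smad3 was highest in the band below it. Of the 555 eligible genes in the top band, 200 had a LAP-Smad2 peak and 98 a LAP-Smad3 peak, although the LAP-Smad3 list was the longer. The top band also held peaks of the library labelled LAP-Smad2 untreated at 57 genes (10.3%) and of the library labelled LAP-Smad3 untreated at 29 genes (5.23%). With 1 library per protein, the tagged Smad and the way each library represents GC-rich DNA cannot be told apart.

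**Figure D3:**
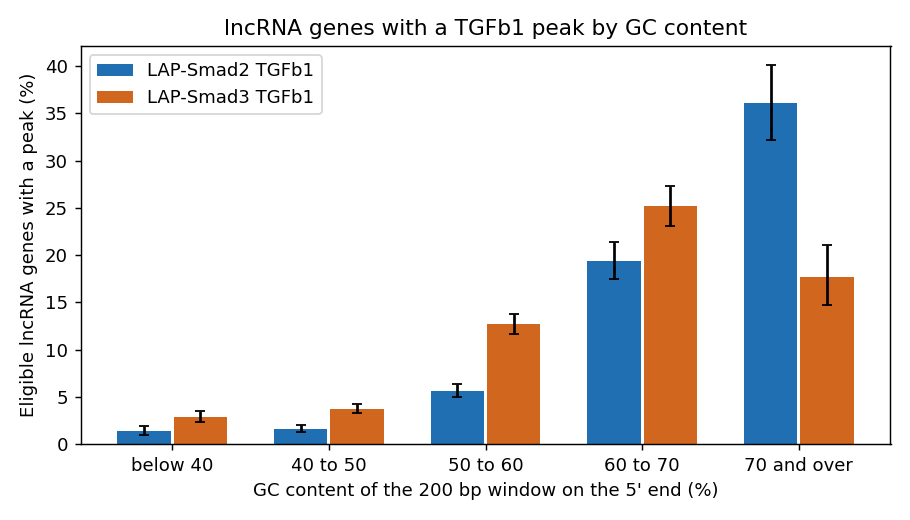
Percentage of eligible lncRNA genes with a LAP-Smad2 or LAP-Smad3 peak after TGFβ-1 within 1 kb, by GC content of the 200 bp window on the 5′ end. Bars are percentages with 95% Wilson intervals. LAP-Smad2 reaches 36.0% in the band of 70% and over, and LAP-Smad3 falls from 25.1% to 17.7% between the last bands.

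Short motifs were counted on both strands of the 200 bp windows, where a match describes the letters only. The GC-rich Smad elements GGCGC and GGCCG were present at 63.0% (59.7% to 66.2%) and 64.3% (61.0% to 67.5%) of LAP-Smad2 sites. At LAP-Smad3 sites they were present at 38.7% (36.2% to 41.3%) and 37.3% (34.8% to 39.9%), and at eligible 5′ ends at 15.2% and 16.9%. In the whole lists, GGCGC and GGCCG were present at 56.8% and 57.6% of LAP-Smad2 peaks, and at 43.2% and 35.3% of LAP-Smad3 peaks. Over all sites, the CAGACA element ran the other way, with 10.2% (8.33% to 12.4%) of LAP-Smad2 sites, 16.2% (14.3% to 18.2%) of LAP-Smad3 sites and 14.7% of eligible 5′ ends. Its shares in the whole lists were 9.72% for LAP-Smad2 and 13.4% for LAP-Smad3. The palindromic element GTCTAGAC was found at 0 LAP-Smad2 sites and 2 LAP-Smad3 sites, and at 14 of 14256 eligible 5′ ends.

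Among windows of like GC content, a split added after the first values had been seen, the difference in GC-rich elements depended on the band. Between 50 and 55% GC, GGCGC was present at 4 of 4 LAP-Smad2 sites, 39.4% (31.6% to 47.8%) of LAP-Smad3 sites and 13% of eligible 5′ ends. Between 55 and 60% GC, it was present at 36 of 52 LAP-Smad2 sites (69.2%, 55.7% to 80.1%), 33.9% (29.9% to 38.2%) of LAP-Smad3 sites and 24.3% (22.2% to 26.4%) of eligible 5′ ends, a wider gap than over all sites. Of these LAP-Smad2 and LAP-Smad3 windows with GGCGC, 44.4% and 51.7% had another copy in hg38 by the measure described with repeated DNA. Between 60 and 65% GC, GGCGC was present at 44.8% (37.6% to 52.2%) of LAP-Smad2 sites, 36.6% (32.4% to 41.1%) of LAP-Smad3 sites and 39.4% (36.4% to 42.5%) of eligible 5′ ends. Between 65 and 70% GC, the shares were 56.6% (50.7% to 62.3%), 44.4% (37.8% to 51.2%) and 56.5% (52.4% to 60.5%). LAP-Smad2 sites thus held GGCGC more often than eligible 5′ ends of like GC content between 55 and 60% GC, and not detectably more often between 60 and 70%. Windows of 70% GC or more, which were 38.4% of LAP-Smad2 and 4.63% of LAP-Smad3 sites, were not compared by band for any motif. GGCCG was present at 38.5%, 30.4% and 24.2% between 55 and 60% GC, at 42.0%, 34.3% and 40.3% between 60 and 65%, and at 63.3%, 53.2% and 63.5% between 65 and 70%. CAGACA was present at 17.3%, 20.5% and 16.2% between 55 and 60% GC and at 14.9%, 16.1% and 16.6% between 60 and 65%. Between 65 and 70% its shares were 9.96%, 13.2% and 9.39%. The CAGACA intervals overlapped in each of these bands.

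Of the motifs of other transcription factors, CAGCTG made up a larger share at sites of both proteins, and AGGTCA at LAP-Smad3 sites, than at eligible 5′ ends. The E-box CANNTG, read by basic helix-loop-helix factors, was present at 51.5% of LAP-Smad2 sites, 61.8% of LAP-Smad3 sites and 66.5% of eligible 5′ ends. Its form CAGCTG, which is counted within CANNTG too, was present at 16.5% (14.1% to 19.1%), 17.2% (15.4% to 19.3%) and 12.2% (11.6% to 12.7%). By GC band, the shares of CAGCTG were 13.5%, 19.5% and 19.4% between 55 and 60%, 16.1%, 14.8% and 18.8% between 60 and 65%, and 18.9%, 22.4% and 16.2% between 65 and 70%, so that the order varied between bands, and the intervals of the 3 sets overlapped in each of them. The nuclear receptor half-site AGGTCA was present at 9.12% (7.36% to 11.3%) of LAP-Smad2 and 17.0% (15.1% to 19.1%) of LAP-Smad3 sites, against 13.6% of eligible 5′ ends. The order of LAP-Smad2 and LAP-Smad3 was the opposite between 55 and 60% GC, where AGGTCA was present at 22 of 52 LAP-Smad2 sites (42.3%, 29.9% to 55.8%), 22.3% (18.9% to 26.1%) of LAP-Smad3 sites and 15.6% (13.9% to 17.5%) of eligible 5′ ends. Of these LAP-Smad2 and LAP-Smad3 windows with AGGTCA, 36.4% and 48.7% had another copy in hg38. The shares of AGGTCA were 10.9%, 14.6% and 12.1% between 60 and 65%, and 7.83%, 10.2% and 11% between 65 and 70%, with overlapping intervals. In the whole lists AGGTCA was more frequent, with 14.0% for LAP-Smad2 and 27.3% for LAP-Smad3, while CAGCTG had 15.7% and 14.1%. Over all sites, the shares were 3.08%, 6.77% and 17.1% for the half-site AGAACA and 1.42%, 3.77% and 7.77% for the AP-1 element TGANTCA. The TEAD element GGAATG had 4.86%, 8.48% and 12%. Each was thus lowest at LAP-Smad2 sites, higher at LAP-Smad3 sites and highest at eligible 5′ ends. This order held between 55 and 60% GC for each, and between 60 and 65% for AGAACA and GGAATG. Between 65 and 70%, the shares were 3.20%, 3.41% and 5.04% for AGAACA, with overlapping intervals. They were 2.49%, 1.46% and 2.78% for TGANTCA and 4.98%, 8.29% and 7.13% for GGAATG, also with overlapping intervals. The FOXH1 element AATCCACA was found at 4 LAP-Smad2 and 6 LAP-Smad3 sites.

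In the sequences printed above, counted on both strands, MIR100HG held 4 matches to GGCGC and 4 to GGCCG, and MALAT1 held 2 and 1. The MIR155HG window held neither element despite its 23 CpGs. NEAT1 held 1 match to GGCGC and 1 to CAGACA, SNHG17 held 3 to GGCGC and 2 to CAGACA, and MIR200CHG held 2 to CAGCTG and 1 to AGGTCA.

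LAP-Smad2 and LAP-Smad3 shared a minority of sites, as they did of peaks in the whole lists. An overlap of at least 1 bp with LAP-Smad3 was found at 203 of the 844 LAP-Smad2 sites (24.1%, 21.3% to 27%), against 24.5% of the whole LAP-Smad2 list. Of the 1404 LAP-Smad3 sites, 203 (14.5%, 12.7% to 16.4%) were overlapped by a LAP-Smad2 peak, against 10.6% of the whole LAP-Smad3 list. With the LAP-Smad3 list cut to the length of the LAP-Smad2 list, these shares were 13.7% and 18.3%, so that their order depended on list length too. The shared sites had a mean GC content of 66.2% by the LAP-Smad2 centre and 64.4% by the LAP-Smad3 centre, while LAP-Smad3 sites that were not shared had 59.8%.

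Most sites were absent from both untreated lists, as were most peaks of the whole TGFβ-1 lists. Of the LAP-Smad2 sites, 90 (10.7%, 8.76% to 12.9%) were overlapped by the library labelled LAP-Smad2 untreated, against 14.1% of the whole list, and 60 (7.11%, 5.56% to 9.04%) by the library labelled LAP-Smad3 untreated, against 9.25%. Of the LAP-Smad3 sites, 82 (5.84%, 4.73% to 7.19%) and 21 (1.5%, 0.980% to 2.28%) were overlapped by the same libraries, against 7.27% and 1.1% of the whole list. A peak in either untreated list was found at 134 LAP-Smad2 sites (15.9%, against 20.9% of the whole list) and 96 LAP-Smad3 sites (6.84%, against 7.86%). No other list had a peak at 562 LAP-Smad2 sites (66.6%, 63.3% to 69.7%) and at 1161 LAP-Smad3 sites (82.7%, 80.6% to 84.6%), and in the whole lists these shares were 63.1% and 85.1%. Seen from the untreated side, 83 of 210 lncRNA start sites labelled LAP-Smad2 untreated and 31 of 94 labelled LAP-Smad3 untreated had no peak in either TGFβ-1 list, against 43.7% and 26.1% of those whole lists.

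Many of these sites lay in repeated DNA. A site was said to have another copy if its 200 bp window aligned to hg38 more than once with at least 90% of its bases matched. This was so for 348 LAP-Smad2 sites (41.2%, 38.0% to 44.6%) and 684 LAP-Smad3 sites (48.7%, 46.1% to 51.3%), against 11% of windows on eligible 5′ ends, and against 7.82% and 18.2% of peaks within 1 kb of protein-coding starts. In the whole lists the shares were 38.0% and 42.0%. Windows with 20 or more alignments made up 7.70% of LAP-Smad2 and 10.8% of LAP-Smad3 sites. Reads from such windows can be placed at any of the copies, so that the gene named at these sites is uncertain. A window with 1 alignment or fewer counted as without another copy. Shorter or more diverged matches were not counted, so such a site may still share part of its sequence with other DNA.

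The overlap between LAP-Smad2 and LAP-Smad3 was lower at sites without another copy by this measure. Among LAP-Smad2 sites without another copy, 60 of 496 (12.1%, 9.51% to 15.3%) were overlapped by a LAP-Smad3 peak, against 143 of 348 (41.1%, 36.0% to 46.3%) with a copy. The same split of the whole LAP-Smad2 list gave 11.7% and 45.5%. Among LAP-Smad3 sites, 58 of 720 (8.06%, 6.28% to 10.3%) without a copy and 145 of 684 (21.2%, 18.3% to 24.4%) with a copy were overlapped by a LAP-Smad2 peak, against 5.21% and 18% in the whole list. Mean GC content without and with a copy was 68.0% and 67.9% at LAP-Smad2 sites, and 59.9% and 61.0% at LAP-Smad3 sites. CpG-rich windows made up 25.7% (22.6% to 29.0%) of LAP-Smad3 sites without a copy and 38.7% (35.2% to 42.4%) with a copy. At LAP-Smad2 sites these shares were 61.3% (56.9% to 65.5%) and 64.7% (59.5% to 69.5%).

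**Figure D4:**
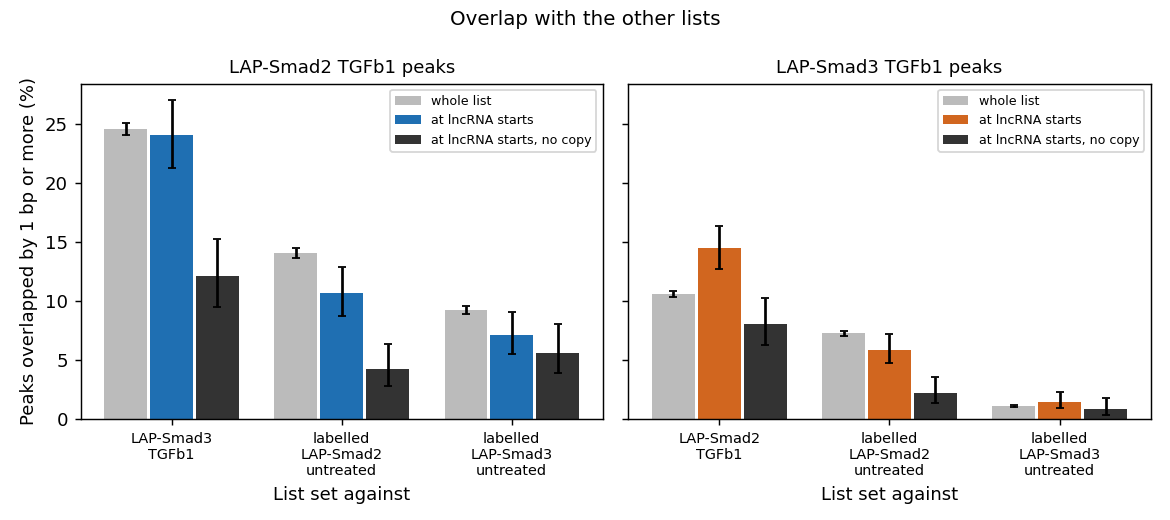
Percentage of LAP-Smad2 peaks (left) and LAP-Smad3 peaks (right) after TGFβ-1 that are overlapped by at least 1 bp by each other list. Grey bars are whole lists, coloured bars are sites at lncRNA starts, black bars are those without another copy in hg38, and lines are 95% Wilson intervals. The black bars are the lowest of each group, at 12.1% and 8.06% for the other TGFβ-1 list.

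The lncRNAs of known function that had peaks are described by role. Among nuclear scaffold RNAs, MALAT1, an abundant RNA of nuclear speckles, had a LAP-Smad2 peak at chr11:65497533-65497917 of 3.42-fold enrichment (−log10 q 3.28). It lay in the first part of the gene, 85 bp from the 5′ end, and none of the other 3 lists had a peak there. NEAT1, the scaffold of paraspeckles and the neighbour of MALAT1 on chromosome 11, had LAP-Smad3 peaks at chr11:65422706-65423073 (4.87-fold, −log10 q 5.05) and chr11:65423276-65423534 (4.47-fold, −log10 q 3.69), both in an exon. None of the other 3 lists had a peak at either site. These neighbouring genes were thus listed with different Smads. Of all 1861 lncRNA genes with a peak after TGFβ-1, 275 had one in both lists.

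Among miRNA hosts, 10 of 72 eligible genes (13.9%, 7.72% to 23.7%) had a LAP-Smad2 peak and 9 (12.5%, 6.72% to 22.1%) a LAP-Smad3 peak, beside the 5.96% and 8.9% of all eligible genes. The host 5′ ends were CpG-rich in 29.2% of cases, against 11.5% of all eligible 5′ ends. Of all eligible genes with a CpG-rich window, 25.9% had a LAP-Smad2 and 21.8% a LAP-Smad3 peak. MIR100HG, a host of miRNAs linked to EMT, had a LAP-Smad2 peak at chr11:122556723-122556957, 119 bp upstream of its 5′ end (3.96-fold, −log10 q 4.15). MIR155HG, the host of a miRNA of immune activation, had a LAP-Smad2 peak at chr21:25562116-25562420 in an intron (4.51-fold, −log10 q 5.27). MIR17HG, whose miRNA cluster is an oncogene, had LAP-Smad2 peaks 193 bp and 532 bp into the gene, at 3.56-fold and 3.32-fold, in windows of 78.0% and 81.5% GC. None of these sites had a peak in the other 3 lists. MIR23AHG had a LAP-Smad2 peak of 3.52-fold and a peak of 3.68-fold in the library labelled LAP-Smad3 untreated.

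MIR200CHG, the host of miRNAs that repress ZEB1 and ZEB2 and so favour the epithelial state, had a LAP-Smad3 peak at chr12:6962631-6962943, 439 bp upstream of its 5′ end (4.97-fold, −log10 q 3.84), and no peak in the other lists. MIR600HG, inside STRBP, had the LAP-Smad3 peak of highest fold among the hosts (7.17-fold, −log10 q 7.63). MIR130AHG was listed with both proteins, at 3.47-fold for LAP-Smad2 and 5.33-fold for LAP-Smad3, with overlapping peaks 306 bp and 172 bp upstream. MIR1302-2HG and MIR2052HG were listed with both too, but their windows had other copies in hg38, as did the MIR663AHG window in the LAP-Smad2 list and the MIR4713HG window in the LAP-Smad3 list. The remaining hosts were MIR210HG and MIR3150BHG with LAP-Smad2, and MIR1-1HG, MIR122HG and MIR202HG with LAP-Smad3.

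Hosts of small nucleolar RNAs, named SNHG, had a LAP-Smad2 peak at 6 of 18 eligible genes (33.3%, 16.3% to 56.3%) and a LAP-Smad3 peak at 3 (16.7%, 5.84% to 39.2%). The shares over all eligible genes were 5.96% and 8.9%. The SNHG 5′ ends were CpG-rich in 14 of 18 genes (77.8%), and of all eligible genes with a CpG-rich window 25.9% had a LAP-Smad2 and 21.8% a LAP-Smad3 peak. The LAP-Smad2 genes were SNHG11, SNHG17, SNHG25, SNHG29, SNHG30 and SNHG32, with folds from 3.14 at SNHG25 to 4.78 at SNHG17. The LAP-Smad3 genes were SNHG8, SNHG17 and SNHG27, and both SNHG27 windows had other copies. SNHG17 was the member with peaks of both proteins, 4.78-fold for LAP-Smad2 (chr20:38434924-38435458) and 4.50-fold for LAP-Smad3 (chr20:38435079-38435294). A peak of 3.37-fold was present there in the library labelled LAP-Smad3 untreated, and none in the library labelled LAP-Smad2 untreated.

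A list of 43 lncRNAs with roles in TGFβ signalling or EMT held 24 eligible genes. Of these, 6 had a LAP-Smad2 peak (25%, 12% to 44.9%) and 3 a LAP-Smad3 peak (12.5%, 4.34% to 31.0%), beside 5.96% and 8.9% of all eligible genes. No gene of the list had both, and of all 18866 lncRNA genes 275 did. Beside MALAT1, MIR100HG and MIR155HG, the LAP-Smad2 genes were KCNQ1OT1, the imprinted antisense RNA of the KCNQ1 locus (4.30-fold, −log10 q 6.15), NORAD, a cytoplasmic RNA that binds Pumilio proteins (3.81-fold, −log10 q 4.93, in a window with other copies), and DANCR. The DANCR peak (4.42-fold, −log10 q 5.14) lay 404 bp from its 5′ end and 335 bp from that of LINC01618, and cannot be assigned to either gene. Beside NEAT1, the LAP-Smad3 genes were LINC01711, with 2 peaks (4.41-fold and 4.97-fold), and LINC00273 (8.37-fold, −log10 q 12), whose window aligned 10 times. Genes of the list such as H19, MEG3, MIR31HG, MIR205HG, UCA1 and LINC00511 were eligible and had no peak in either TGFβ-1 list. Of the 24 eligible genes, 10 (41.7%) had a CpG-rich 5′ end.

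The larger classes of lncRNA symbols stayed near the background. Genes with a LINC symbol had a LAP-Smad2 peak in 135 of 2157 cases (6.26%) and a LAP-Smad3 peak in 172 (7.97%), and antisense genes in 45 (5.04%) and 75 (8.40%) of 893. Genes without a symbol were the largest class, with 549 (5.31%) and 890 (8.61%) of 10338. Other symbols reached 15.7% (13.1% to 18.7%) and 17.4% (14.7% to 20.5%) of 644 genes, and 31.8% of these genes were annotated as overlapping a pseudogene. Over all classes, genes so annotated had a peak of either protein in 152 of 761 cases each (20%, 17.3% to 23%), against 5.16% and 8.28% of the other eligible genes. Their 5′ ends were CpG-rich in 33.6% of cases, against 10.2%. The parts of pseudogene origin, CpG content and copy number in these shares were not tested.

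**Figure D5:**
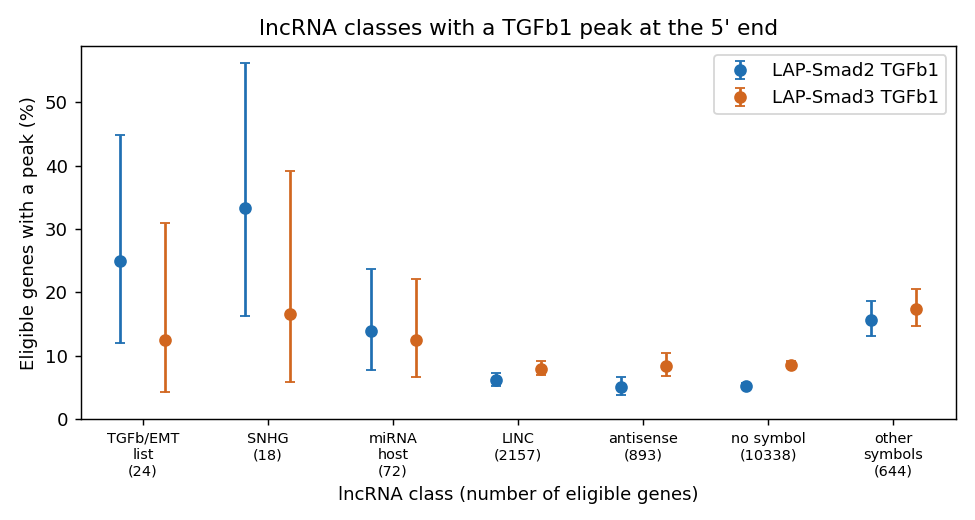
Percentage of eligible lncRNA genes of each class with a LAP-Smad2 or LAP-Smad3 peak after TGFβ-1 within 1 kb of the 5′ end, with the number of genes in brackets. Points are percentages and bars are 95% Wilson intervals, which are wide for the list of TGFβ and EMT lncRNAs (24 genes) and the SNHG genes (18 genes).

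Sites inside protein-coding genes made up a smaller share than among eligible 5′ ends. The peak centre lay within a protein-coding gene at 148 LAP-Smad2 sites (17.5%, 15.1% to 20.2%) and 324 LAP-Smad3 sites (23.1%, 20.9% to 25.4%), against 31.1% of eligible 5′ ends and against 52.1% and 51.1% of the whole lists. The host gene was on the opposite strand at 13.2% of LAP-Smad2 sites, 16.9% of LAP-Smad3 sites and 22.8% of eligible 5′ ends. It was on the strand of the lncRNA at 4.86%, 6.62% and 9.05%.

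Few sites lay next to protein-coding genes known as TGFβ targets. With a list of 42 such genes, the nearest protein-coding 5′ end belonged to the list for 4 LAP-Smad2 sites (0.474%, against 0.369% of the whole list) and 7 LAP-Smad3 sites (0.499%, against 0.521%), and for 0.666% of eligible lncRNA genes. LINC02993 had a LAP-Smad2 peak of 4.85-fold (−log10 q 6.65) in a window of 76.5% GC that was 3242 bp from ZEB2, a repressor of epithelial genes. ENSG00000234938, whose nearest protein-coding gene is FN1, encoding fibronectin, had a LAP-Smad2 peak of 4.51-fold at 109526 bp from it. PVT1, next to MYC, had LAP-Smad2 peaks of 4.12-fold and 3.52-fold, 579 bp and 154 bp upstream. Among LAP-Smad3 sites, THBS1-IT1 lay inside THBS1, encoding an activator of latent TGFβ, with a peak of 5.52-fold 6312 bp from the gene's start. ENSG00000236961 (4.02-fold) and LINC02537 (5.09-fold) lay nearest to VEGFA, ENSG00000286266 (5.51-fold) nearest to MYC and DLGAP1-AS2 (5.83-fold, in a window with other copies) nearest to TGIF1. None of these sites had a peak in the other 3 lists.

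The remaining 2 LAP-Smad3 sites of this kind were both at ENSG00000259202, a lncRNA inside SMAD3. They lay at chr15:67146390-67146611 (5.49-fold, −log10 q 13.0) and chr15:67146946-67147393 (5.56-fold, −log10 q 12), and no other list had a peak there. SMAD3 is the gene carried by the BAC in these cells, so that added copies of this DNA and binding of the protein cannot be told apart here. No LAP-Smad2 site lay within 100 kb of SMAD2 or SMAD3.

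Peaks at lncRNA start sites were of ordinary strength for their lists. Median fold enrichment was 3.91 at LAP-Smad2 sites, with a range from 1.44 to 17.4, and 3.98 in the whole list. At LAP-Smad3 sites it was 4.97, with a range from 2.49 to 12.7, and 4.97 in the whole list. Median width was 256.5 bp and 244 bp.

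The most significant LAP-Smad2 sites without another copy were in part present before treatment. ENSG00000289474, a short lncRNA gene inside KIF5C, which encodes a neuronal kinesin, had a LAP-Smad2 peak at chr2:148881595-148882001 of 17.1-fold (−log10 q 84.5). The library labelled LAP-Smad3 untreated had a peak of 17.0-fold there, and the other 2 lists had none. Its window had 39.5% GC, far below the mean of 68.0% for LAP-Smad2 sites. Whether part of this window matches other DNA, from which its reads could come, was not tested. ENSG00000287329 on chromosome 9 had peaks in all 4 lists, of 6.92-fold for LAP-Smad2, 7.38-fold for LAP-Smad3, and 6.98-fold and 8.23-fold in the libraries labelled LAP-Smad2 and LAP-Smad3 untreated. The window of its LAP-Smad2 peak aligned once, but that of the overlapping LAP-Smad3 peak aligned 16 times. ENSG00000243655 (6.96-fold) had a peak of 7.09-fold in the library labelled LAP-Smad3 untreated. ENSG00000267096, inside the splicing factor gene U2AF2, had 7.52-fold for LAP-Smad2, 2.90-fold for LAP-Smad3 and 4.62-fold in the library labelled LAP-Smad3 untreated. LINC01205, with 7.84-fold in an intron, was the single one of these 5 without a peak in any other list.

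The 5 most significant LAP-Smad3 sites without another copy were found in no other list. ZSCAN16-AS1, an antisense lncRNA of a zinc finger gene cluster, had the strongest peak, at chr6:28136704-28137532 (9.81-fold, −log10 q 13.8). It was followed by ENSG00000259202 at SMAD3, by ENSG00000225140 inside DIP2C (chr10:628540-628863, 9.38-fold), and by ENSG00000233817 (9.38-fold) and ENSG00000226694 (8.83-fold). LINC00879 was, beside ENSG00000287329, the other site without a copy at its LAP-Smad2 peak that all 4 lists shared. Its peaks had 4.51-fold for LAP-Smad2, 5.44-fold for LAP-Smad3, and 9.37-fold and 4.37-fold in the libraries labelled LAP-Smad2 and LAP-Smad3 untreated.

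With copies kept, the highest ranks went to repeated DNA. The 4 most significant LAP-Smad3 sites were ENSG00000281181, ENSG00000280800, ENSG00000280614 and ENSG00000281383, all at the start of chromosome 21, with folds from 6.43 to 7.95 and windows that aligned 9 or 10 times. At all 4, peaks of 10.8-fold to 12.6-fold were listed in the library labelled LAP-Smad2 untreated. The most significant LAP-Smad2 site was ENSG00000289901 on chromosome 13, with 17.4-fold and a peak of 17.3-fold in the library labelled LAP-Smad3 untreated, in a window that aligned 4 times. Chromosome 9 held 8.26% of LAP-Smad3 sites, against 6.14% of the whole LAP-Smad3 list and 3.54% of eligible genes.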

How the data were processed

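Anti-GFP ChIP-seq was performed on 4 libraries, 1 per condition. Per the study's methods, the authors used Bowtie2 for alignment to hg38 and MACS2 for peak calling, with reads lengthened to 200 bp and q-values up to 0.05 kept, and deposited the peaks of every library as a separate list. bedtools is also named in the submitters' processing notes. The fold enrichment is a ratio from the authors' peak caller, p-values and q-values were deposited as −log10, and the deposited integer score was not used. The control library and tool versions are not given in the sources used here.

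Members were found with Python 3.11.15, numpy 2.4.6 and pysam 0.24.0 from interval centres and GENCODE release 44. Windows of 200 bp were read from hg38 and aligned to its primary sequences with minimap2 2.31, listing at most 50 further alignments, and plots were drawn with matplotlib 3.10.9. Wilson intervals came from the formula at the 95% level. No test was made, since each condition had 1 library, and the depth of single libraries is unknown. Functions were tested on simulated regions, where 7 of 7 checks passed.

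Members, lists and alternatives were chosen with earlier results of these data known. The named lncRNAs were, per list, the 5 members of highest −log10 q without another copy, those shared by all 4 lists, and every member of the lists of TGFβ and EMT lncRNAs, miRNA hosts and SNHG genes. lncRNAs next to listed TGFβ targets and the strongest sites with copies were added after their values had been seen.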

Additional observations from a re-analysis of the deposited data

How the results depend on the processing

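No paired analysis was possible because each condition had 1 library. The limits are set by 1 library per condition, an unknown depth, untreated libraries whose labels and deposited names give opposite Smads, and DNA with other copies. Of 176 alternative values, 125 moved by less than counting error or the set limit and 51 moved further. The limit set for counts was wide, so that the fall from 844 to 567 LAP-Smad2 sites within 500 bp was among the 125. Cutting the LAP-Smad3 list to equal length turned the order of LAP-Smad2 and LAP-Smad3 in the share of eligible genes with a peak (5.96% and 8.9%, then 5.96% and 4.31%) and in the share of sites overlapped by the other protein (24.1% and 14.5%, then 13.7% and 18.3%). The order of CAGCTG (16.5% and 17.2%) turned without copies (18.8% and 17.6%) and on summit windows (17.8% and 17.7%), and that of AATCCACA (0.474% and 0.427%) without copies (0.403% and 0.556%), all within overlapping intervals. The causes were not tested beyond what each setting changes by construction.

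Counts moved with the distance limit and with the removal of copies. Within 500 bp, LAP-Smad2 sites numbered 567 and LAP-Smad3 sites 808, and sites made up 2.11% of the LAP-Smad2 and 1.29% of the LAP-Smad3 list. Within 2 kb, LAP-Smad2 sites numbered 1140 and LAP-Smad3 sites 2284, and the shares were 4.25% and 3.65%. Eligible genes with a peak were 4.15% (LAP-Smad2) and 5.59% (LAP-Smad3) within 500 bp, and 7.90% and 13.3% within 2 kb. With the LAP-Smad3 list cut to equal length, 4.31% had a LAP-Smad3 peak. Sites more than 1 kb from protein-coding starts made up 3.43% and 2.50% of the lists, and those at starts of all lncRNA transcripts 3.95% and 3.09%. With starts of all transcripts of protein-coding genes, the LAP-Smad3 share was 2.09%.

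Without windows with another copy, 496 LAP-Smad2 and 720 LAP-Smad3 sites were left, the latter 1.98% of its list. The overlap of LAP-Smad2 sites with LAP-Smad3 was then 12.1%, and 12% with a mutual overlap of 50%, 10.9% with summits within 100 bp and 13.7% with the LAP-Smad3 list cut to equal length. The overlap of LAP-Smad3 sites with LAP-Smad2 was 8.06%, 7.19%, 6.70% and 18.3% under these settings, and 11.9% within 2 kb. The overlap of LAP-Smad2 sites with the library labelled LAP-Smad2 untreated was 4.23% without copies, 5.33% with the mutual overlap, 4.98% by summits and 8.29% within 500 bp. With the library labelled LAP-Smad3 untreated it was 4.62% with the mutual overlap and 4.50% by summits. For LAP-Smad3 sites, the library labelled LAP-Smad2 untreated gave 2.22% without copies, 3.70% with the mutual overlap, 3.77% by summits and 4.46% within 500 bp, and the library labelled LAP-Smad3 untreated gave 0.833% without copies and 0.926% by summits.

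The difference in mean GC content was 8.77 percentage points without shared sites and 8.11 without copies. Without copies, CAGACA was at 7.46% and CANNTG at 55% of LAP-Smad2 sites, and GGCGC at 33.8% and CANNTG at 64.9% of LAP-Smad3 sites. On windows centred on the summit, CANNTG was at 55.5% of LAP-Smad2 sites. Hosts on the same strand held 4.86% of LAP-Smad2 and 6.62% of LAP-Smad3 sites, and hosts on the opposite strand 13.2% and 16.9%. Leaving out the SMAD2 and SMAD3 loci, an alternative added after seeing the data, moved none of the 10 values computed beyond the limits used here. It could hardly do so, since 0 LAP-Smad2 and 2 LAP-Smad3 sites lay at these loci.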
